A study of Mus musculus with 18 samples.

Results

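The 9 genes described here, Ube2l6, Isg15, Ifit1, Ifit3, Irf7, Bst2, Psmb8, Psmb9 and Tap1, are interferon-stimulated genes. They were chosen by symbol, out of 52230 genes summed from the deposited transcript estimates, with results of the same livers already known, and all 9 passed the minimum of 10 counts in at least 4 libraries that left 10938 genes to be tested. The choice did not name one contrast, so the differences between groups in these 9 genes are given as a description. Livers came from mice of the GCKR-P446L-EMI-B6N line on standard chow. Mice with the genotype Gckr-446P (here PP) or Gckr-446L (here LL) differ in a proline or a leucine at 1 residue of the glucokinase regulatory protein GKRP, which binds glucokinase in the hepatocyte nucleus. Each liver came from 1 mouse, and the groups held 5 female mice of either genotype and 4 male mice of either. The labels give ages of 9 to 14 weeks in both PP groups, 11 to 14 weeks in female LL and 13 to 14 weeks in male LL, whereas the series' design text gives 14 weeks for all. The change was in the germline, so every liver cell of an LL mouse carries it.

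Interferons are secreted when cells sense foreign nucleic acid. Type I interferons bind IFNAR1 and IFNAR2 and signal through the kinases JAK1 and TYK2 to the interferon-stimulated response element (ISRE) in the promoters of target genes. Interferon gamma acts at GAS elements and induces class I antigen presentation. Ube2l6 encodes the E2 enzyme UBCH8, which passes the ubiquitin-like protein ISG15 from the E1 enzyme UBA7 to its targets. Ifit1 and Ifit3 encode cytosolic RNA-binding antiviral proteins, Bst2 encodes tetherin, which holds budding virions at the cell surface, and Irf7 encodes the factor that amplifies type I interferon transcription. Psmb8 and Psmb9 encode catalytic subunits of the immunoproteasome, and Tap1 encodes a chain of the transporter that brings peptides to class I molecules. Hepatocytes, Kupffer cells and sinusoidal endothelial cells all answer interferon.

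Sequencing depth was 3794671 to 6613905 estimated counts per library. Albumin, the defining hepatocyte product, had 311509 to 724059 normalised counts in every library, and all 8 hepatocyte markers were detected. The fragment length of a library, read from the difference between transcript length and effective length in the files, was 447.8 ± 108 bases in female PP (SD, n = 5) and 291.5 ± 52.1 bases in female LL (n = 5), against 518.0 ± 95.7 in male PP (n = 4) and 406.8 ± 156 in male LL (n = 4). Fragment length thus moved with genotype in the females. The replicates come from separate mice, and the counting error of a single library is larger for the low genes, which had as few as 16 counts. Changes of scale also matter, since the median of all tested genes on log2 TPM was shifted by 0.50 in female PP against male PP, 0.21 in male LL against male PP, 0.20 in female LL against male LL and -0.08 in female LL against female PP. A bulk measurement cannot tell fewer cells of a type from less RNA per cell.

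The ISRE is the promoter element through which type I interferon acts, so the windows that hold its letters are shown. In the 250 bases upstream of the RefSeq start, the letters GAAANNGAAA, on either strand, occurred in Isg15, Ifit1, Ifit3 and Bst2, 4 of the 9 genes, and in 2.98% of the 32841 promoters of the table. Among the promoters of tested genes the share was 2.72%. The stretches from 160 to 36 bases before the start follow, 5′ to 3′ in the direction of the gene, with each ISRE in capitals. They are credited to RefSeq (GRCm38.p6) and were placed in GRCm39 by an exact and unique match.
Isg15 (chr4:156285311-156285435, minus strand): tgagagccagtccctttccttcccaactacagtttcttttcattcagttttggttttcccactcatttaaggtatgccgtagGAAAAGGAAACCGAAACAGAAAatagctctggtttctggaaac
Ifit1 (chr19:34618129-34618253, plus strand): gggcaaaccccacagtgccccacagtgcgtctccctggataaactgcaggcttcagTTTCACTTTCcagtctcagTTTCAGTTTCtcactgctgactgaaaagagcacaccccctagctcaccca
Ifit3 (chr19:34560769-34560893, plus strand): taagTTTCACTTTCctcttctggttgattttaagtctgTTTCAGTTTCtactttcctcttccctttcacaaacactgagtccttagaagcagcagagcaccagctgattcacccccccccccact
Bst2 (chr8:71990152-71990276, minus strand): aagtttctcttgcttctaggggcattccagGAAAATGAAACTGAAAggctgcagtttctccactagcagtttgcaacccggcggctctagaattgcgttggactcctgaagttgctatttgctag

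Isg15 held 3 overlapping copies that began 78, 72 and 66 bases before its start, and Bst2 held a pair of overlapping copies at 130 and 124 bases. Ifit1 carried the element at 104 and 85 bases, and Ifit3 at 156 and 122 bases, each time on the opposite strand. The GAS letters TTCNNNGAA occurred in Bst2, where they overlap the first ISRE by 3 bases, and in Psmb8 at 97 bases, against 7.02% of all promoters. Among the promoters of tested genes the GAS share was 5.78%. The windows of Ube2l6, Irf7, Psmb9 and Tap1 held neither set of letters. The RefSeq start is not always the GENCODE start of the main transcripts counted. The Psmb9 window (34406305-34406554) lies downstream of the 34406738 start of its main transcript. The Psmb8 window (34416919-34417168) lies downstream of the 34416695 start of its 840-base coding transcript. The Tap1 window runs to 34406529, past the 34406375 start of its main transcript. The Irf7 window (140846338-140846587, minus strand) likewise runs past the 140846398 start of its main transcripts. The bases upstream of these starts were thus not, or only partly, searched. Psmb9 and Tap1 lie head to head on chromosome 17, so their windows overlap, and Psmb8 lies next to Tap1 on the same stretch.

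In GRCm39 the protein-coding genes lie as follows. Ube2l6 (ENSMUSG00000027078) is at chr2:84628630-84640783, plus strand, and Isg15 (ENSMUSG00000035692) at chr4:156283883-156285303, minus strand. Ifit1 (ENSMUSG00000034459, chr19:34618271-34632174, plus) and Ifit3 (ENSMUSG00000074896, chr19:34560899-34566443, plus) lie near each other. Irf7 (ENSMUSG00000025498) is at chr7:140842619-140846398, minus strand, and Bst2 (ENSMUSG00000046718) at chr8:71986895-71990114, minus strand. Psmb9 (ENSMUSG00000096727, chr17:34400960-34406738, minus), Tap1 (ENSMUSG00000037321, chr17:34405996-34416199, plus) and Psmb8 (ENSMUSG00000024338, chr17:34416690-34420428, plus) adjoin each other in the major histocompatibility complex.

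Levels of the 9 genes spanned a wide range. In TPM, the deposited unit that divides by transcript length and by library size, the median over 18 libraries was 85.3 for Bst2, 45.6 for Ube2l6, 18.0 for Psmb8, 13.9 for Isg15, 11.4 for Psmb9, 8.39 for Irf7, 7.95 for Ifit3, 3.44 for Ifit1 and 3.05 for Tap1. Each neighbour in this order overlapped the next in its range over libraries. The lowest raw count of any member in any library was 16, in Isg15 and Psmb9. Below, levels are normalised counts, that is, estimated counts divided by the library size factor of DESeq2, and they are compared only between livers for the same gene.

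In normalised counts, Ube2l6 was higher in female LL livers than in any other liver of the series. Its normalised counts were 384, 338, 306, 365 and 345 in the 5 female LL livers. In the 5 female PP livers they were 229, 235, 269, 242 and 222. The 4 male PP livers gave 232, 285, 266 and 270, and the 4 male LL livers gave 270, 264, 211 and 266. The lowest female LL liver thus lay above the highest of the 13 others, a pattern found in 18 genes or 0.165% of all tested. The mean was 348 ± 29.6 in female LL and 239 ± 17.9 in female PP, a log2 fold change of 0.54 ± 0.10 (SE) or 1.45-fold. Female LL exceeded male LL by 0.47 ± 0.11, whereas male LL and male PP differed by -0.07 ± 0.12 and female PP and male PP by -0.14 ± 0.11. The difference between the genotype effects of the sexes was 0.61 ± 0.16. In the DESeq2 fit Ube2l6 was called (adjusted P below 0.05 over all tested genes and at least 1.3-fold higher or 0.7-fold lower) in female LL against female PP (adjusted P = 0.000138) and in female LL against male LL (0.00133), and it passed 0.05 for the interaction (0.0245, or 0.0686 without independent filtering).

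**Figure D1:**
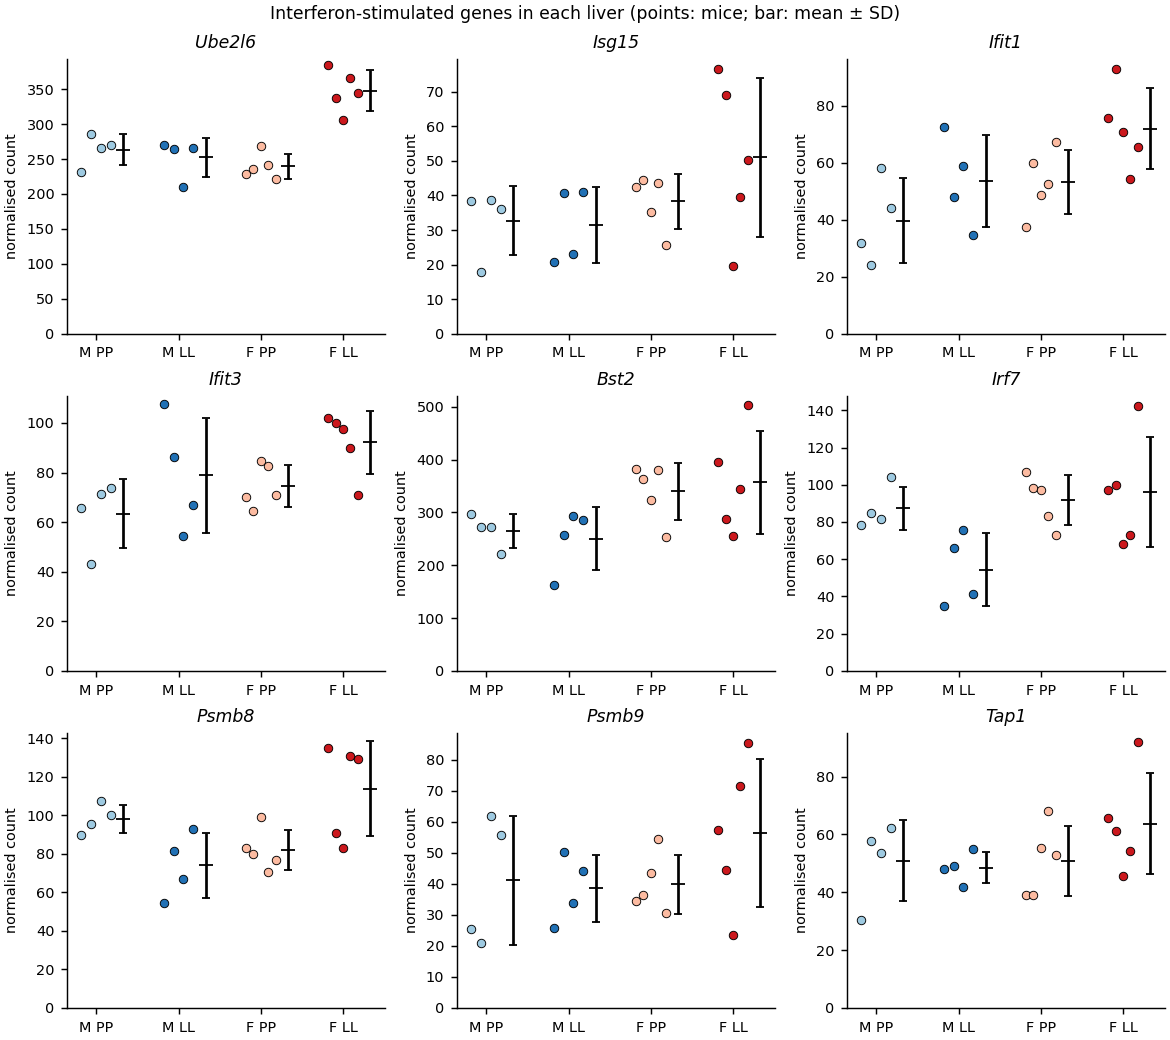
Normalised counts (y axes, linear from 0) of the 9 interferon-stimulated genes in male (M) and female (F) PP and LL livers, each point 1 mouse in the order of the replicate number and each bar the mean ± SD. The 5 female LL livers lie above the 13 others for Ube2l6, and for the other 8 genes female LL overlaps at least 1 group.

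On the TPM scale the Ube2l6 groups ran in another order, at 31.7 ± 4.00 in male PP, 42.2 ± 4.00 in male LL, 48.4 ± 2.95 in female PP and 59.6 ± 14.8 in female LL. Female LL was not separate on that scale, since female LL 1 and 4, at 44.8 and 48.7 TPM, lay within the 43.7 to 51.3 of female PP. There the log2 difference was 0.26 in female LL against female PP and 0.60 in female PP against male PP, the latter opposite in sign to the normalised counts and beside the shift of all genes by 0.50. The female LL libraries also had the shorter fragments. Female LL 1, 2, 4 and 5 had 247.0 to 293.6 bases, below the 368.9 to 631.0 of every female PP library. Genotype and fragment length thus cannot be told apart in the females, and the part of each in Ube2l6 was not tested. Female LL 3, with fragments of 376.5 bases, had 306 normalised counts. Female PP 4, 2 and 5, with fragments of 368.9, 383.5 and 397.4 bases, had 242, 235 and 222. Male LL 2 had the shortest fragments of all, 202.9 bases, and 264 counts, within the range of the other males. These are single libraries and do not separate genotype from fragment length. With fragment length as a covariate the female log2 fold change was 0.58 and remained called (adjusted P = 0.00860, DESeq2). With the average transcript length of each library as an offset it was 0.40 and was not called (adjusted P = 0.473), and with edgeR's quasi-likelihood test it was 0.53 at an adjusted P of 0.0851. The offset depends on how counts were divided between transcripts. Of the Ube2l6 counts, 86.5% went to a coding transcript of 1560 bases and 13.2% to a retained-intron transcript of 525 bases, which was estimated at 0 in female LL 1 and 4. For the coding transcript alone, female LL livers had 242 to 384 normalised counts and female PP livers 177 to 238, which did not overlap.

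**Figure D2:**
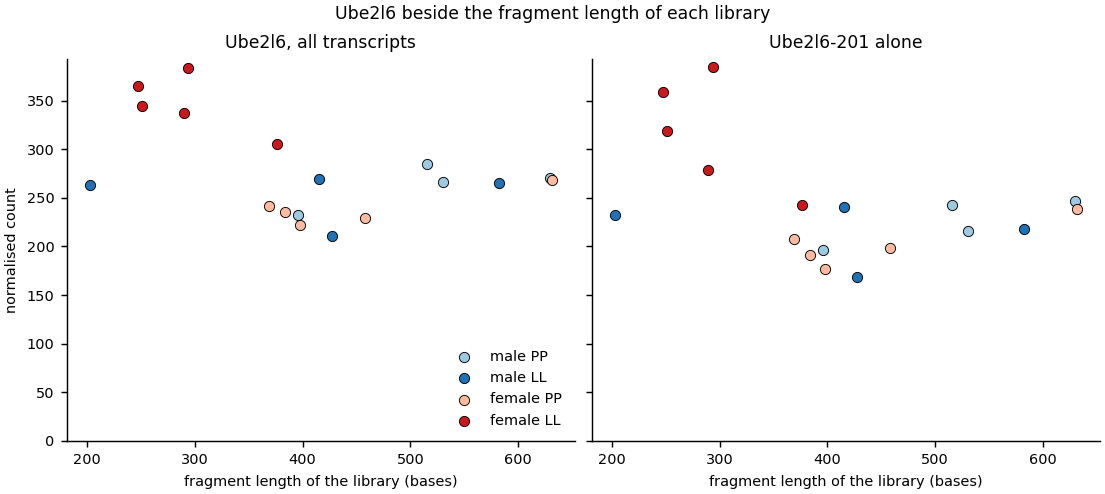
Normalised counts of Ube2l6 (y axis) against the fragment length of the library in bases (x axis), for the gene sum (left) and for its 1560-base coding transcript (right), each point 1 liver coloured by group. Female LL 3 at 376.5 bases lies above the female PP libraries of like fragment length, and male LL 2 at 202.9 bases lies with the other males.

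The partners of Ube2l6 in ISG15 conjugation did not all follow it. Isg15, the modifier itself, had 76.5, 69.2, 19.5, 39.5 and 50.3 normalised counts in female LL and 42.3, 44.5, 35.2, 43.5 and 25.7 in female PP. Female LL 1 and 2 were the highest of the series and female LL 3 was below every female PP liver, so the groups overlapped. The female log2 fold change was 0.42 ± 0.31, and male LL differed from male PP by -0.05 ± 0.37. Uba7, the E1 enzyme, had 39.5 to 60.1 normalised counts in female LL and 18.1 to 35.6 in male LL, and was higher by 0.93 ± 0.26 (adjusted P = 0.00911, DESeq2). Arih1, which encodes the Ariadne-type ligase ARIH1, fell in female LL against male LL, with a log2 fold change of -0.59 ± 0.14 (adjusted P = 0.00122). Ube2l3, the ubiquitin E2 closest to Ube2l6, differed by 0.07 ± 0.10 between the female genotypes (95% interval -0.12 to 0.25). Of the 6 genes of the conjugation list other than Ube2l6 and Isg15, 0 were called between the genotypes in either sex (DESeq2). At an unadjusted p under 0.05, 2 passed in males and 0 in females.

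The antiviral effectors Ifit1, Ifit3 and Bst2, whose promoters are shown above, overlapped between groups. Ifit1 had 75.6, 92.9, 70.7, 54.3 and 65.7 normalised counts in female LL and 37.5, 60.0, 48.7, 52.5 and 67.3 in female PP. In males it had 72.6, 48.0, 58.9 and 34.6 in LL and ranged from 24.1 to 58.3 in PP. The log2 difference between LL and PP was 0.44 ± 0.23 in females and 0.41 ± 0.28 in males, and these differed by 0.03 ± 0.37. For Ifit3 it was 0.31 ± 0.19 in females and 0.29 ± 0.22 in males. Of the 31-base words of Ifit3, 56.7% also occur in another gene, mostly the neighbouring near copy Ifit3b, and the sum of both genes gave 0.29 in females. Bst2 ranged from 255 to 503 normalised counts in female LL and from 253 to 382 in female PP, a log2 difference of 0.07 ± 0.19. In males it ranged from 163 to 294 in LL and from 221 to 298 in PP, and female LL exceeded male LL by 0.51 ± 0.20. None of these 3 genes was called in any contrast by DESeq2 or edgeR.

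Among 76 further antiviral effectors, 63 were tested. Between the genotypes 0 of the 63 were called in males and 0 in females by DESeq2, with 4 and 7 at an unadjusted p under 0.05. In female LL against male LL, 6 rose (Ly6e, Shisa5, Helz2, Samd9l, Ly6a and Ifi27l2a) and 0 fell, or 9.52% of the list beside 6.12% of all tested genes called and 3.33% called higher. Samd9l, a restriction factor, had 93.0 to 136 normalised counts in female LL and 39.6 to 90.7 in male LL, 0.86 ± 0.24 higher (adjusted P = 0.0104, DESeq2). It was also higher in female PP than in male PP, by 1.08 ± 0.25 (adjusted P = 0.000561). In that contrast of PP livers 4 effectors rose (Samd9l, Slfn5, Helz2 and Ifi44) and 1 fell (Apobec3, by 1.20 ± 0.38), or 7.94% of the list, near the 6.45% of all tested genes called there. The median log2 fold change of the 63 was -0.04 in females, -0.08 in males, 0.24 in female PP against male PP and 0.30 in female LL against male LL. Over all tested genes the median was 0.01, 0.00, 0.00 and 0.01 in the same order.

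Irf7 had its lowest mean in the male LL livers. It had 34.99, 65.9, 75.8 and 41.1 normalised counts in male LL and 78.4, 85.0, 81.8 and 104 in male PP. In female PP it had 107, 98.2, 97.4, 83.3 and 72.9, and in female LL 97.4, 99.8, 68.3, 72.8 and 142. The log2 difference between genotypes was -0.68 ± 0.25 in males, which DESeq2 did not call (adjusted P = 0.389 without independent filtering), and 0.07 ± 0.22 in females. Female LL exceeded male LL by 0.80 ± 0.24 and was called (adjusted P = 0.0183). That call was lost without male LL 1, without male LL 4 or without female LL 5. Of the Irf7 counts, 45.2% went to a transcript of 1916 bases and 29.2% to one of 1764 bases, and several libraries were at 0 for one or the other.

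Upstream of these genes lie the ligands, receptors and sensors. Of 21 interferon ligand genes, 18 had 0 counts in all 18 libraries, and Ifng, Ifnk and Ifnz had 3, 2 and 1 counts in total. Their transcripts were not detectable at this depth, which is not a measure of interferon protein. Of 12 receptors and transducers 11 were tested, and 0 were called in any contrast by DESeq2. Jak1, the kinase of both receptor types, had an adjusted P of 0.0371 in female LL against female PP, but its log2 fold change of -0.39 ± 0.11 was short of the fold limit. Of 14 nucleic acid sensors 9 were tested. Mavs, the mitochondrial adaptor of RNA sensing, rose in female PP against male PP by 0.39 ± 0.12 (adjusted P = 0.0178). It had 219 to 268 normalised counts in female LL and 333 to 385 in female PP, a log2 difference of -0.47 ± 0.11 (adjusted P = 0.00581) that was also short of the fold limit. Of 13 interferon regulatory factors and brakes 12 were tested and 0 were called. In males Irf5, a further factor of the family, had a log2 difference of -0.95 ± 0.30 and the ISG15 protease gene Usp18 one of -0.69 ± 0.25, neither called (adjusted P = 0.176 and 0.359 without independent filtering).

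**Figure D3:**
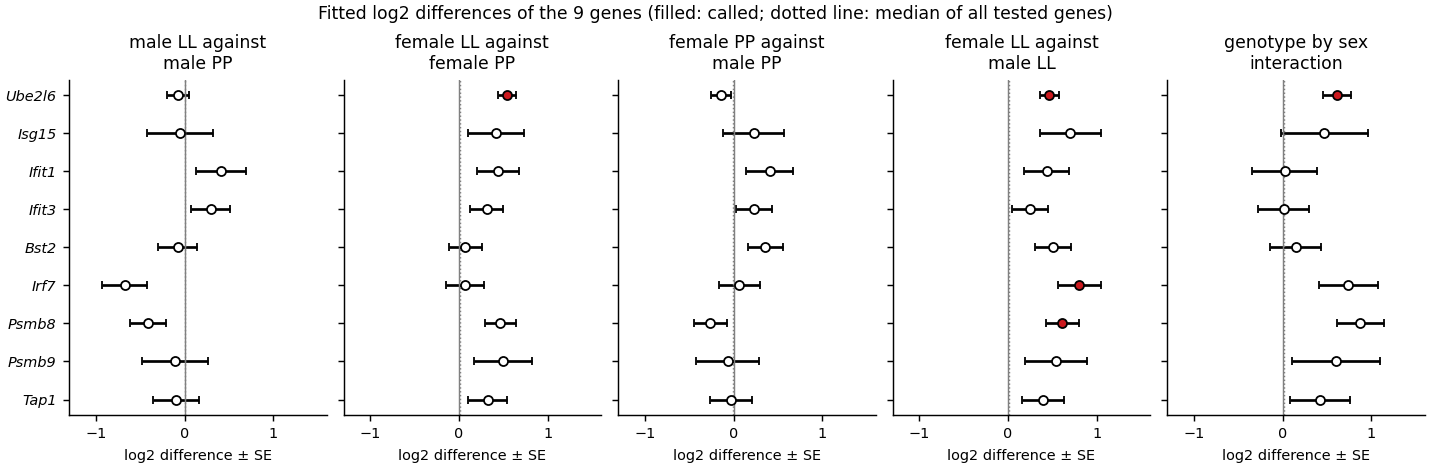
Log2 differences ± SE (x axes) of the 9 interferon-stimulated genes in 4 contrasts and in the genotype by sex interaction, from the DESeq2 fit on 18 livers, with called genes filled and the median of all tested genes dotted. All 9 lie above 0 in female LL against female PP and in female LL against male LL, and 1 and 3 of them are called.

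Psmb8 lay above the other livers in 3 of the 5 female LL mice. Its normalised counts were 135, 90.9, 82.9, 131 and 129 in female LL and 83.0, 80.0, 99.0, 70.7 and 77.0 in female PP. In male LL they were 54.4, 81.5, 66.9 and 92.9 and in male PP 89.6, 95.5, 107 and 99.9. Female LL 1, 4 and 5 stood above every other liver and female LL 2 and 3 did not. The log2 difference between genotypes was 0.47 ± 0.17 in females and -0.41 ± 0.20 in males, neither called. Female LL exceeded male LL by 0.61 ± 0.19 and was called (adjusted P = 0.0234), a call lost without female LL 1, 4 or 5 or without male LL 1 or 3. With the transcript length offset the female difference was -0.02, and 51.9% of the Psmb8 counts went to a retained-intron transcript of 1234 bases. That transcript took 96.6% of the counts in female LL 4 and 30.5% in female LL 5. The 840-base coding transcript, with 39.4% of the counts, had a lower mean in female LL, 23.4 normalised counts, than in female PP, 31.2. Its means were 40.9 in male LL and 45.4 in male PP, and it was estimated at 0 in female LL 4 and 5. Psmb9 had 57.4, 44.5, 23.6, 71.6 and 85.4 in female LL and 30.5 to 54.4 in female PP, 0.50 ± 0.32. Tap1 had 65.6, 61.3, 45.5, 54.3 and 91.9 in female LL and 39.1 to 67.9 in female PP, 0.32 ± 0.22. Both groups overlapped for both genes. Psmb9 and Tap1 overlap at their starts on opposite strands, 8.79% of the words of Psmb9 occur in Tap1, and whether counting used strand is not given in the sources used here.

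Psmb8 and Psmb9 replace Psmb5 and Psmb6 when the immunoproteasome assembles. Within each library Psmb8 made up 20.7 ± 3.65% of the TPM of Psmb8 and Psmb5 together in female LL and 19.7 ± 3.91% in female PP (SD, n = 5 each). For Psmb9 and Psmb6 the share was 10.8 ± 2.57% in female LL and 8.80 ± 1.61% in female PP. These shares overlapped in range between the female groups. Of 14 constitutive proteasome genes 13 had a log2 fold change above 0 in female LL against female PP, with a median of 0.19 and 0 called by DESeq2 (3 at an unadjusted p under 0.05). Psmb5, Psmb6 and Psmb7 have count-weighted lengths of 897, 796 and 1160 bases, and in this contrast the median of all tested genes was 0.25 under 1000 bases and 0.12 from 1000 to 2000 bases. The third inducible subunit, Psmb10, rose in female LL against male LL by 1.01 ± 0.30 (adjusted P = 0.0192).

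Of 20 further class I genes, 19 were tested. Psme1, a subunit of the PA28 proteasome activator, rose in female LL against female PP by 0.62 ± 0.15 (adjusted P = 0.0126, DESeq2). It had 350, 305, 264, 426 and 392 normalised counts in female LL and 178, 225, 233, 296 and 196 in female PP, overlapping in 1 liver of each group, and it was not called in 12 of 32 alternatives, among them age as a covariate and leaving out female PP 1, 2, 3 or 5 or female LL 1 or 4. Its length was 717 bases. In female LL against male LL 8 of the 19 class I genes rose and 0 fell, beside 6.12% of all tested genes called and 3.33% called higher, namely H2-Q7, H2-K1, H2-D1, H2-T23, H2-Q6, H2-T22, Psmb10 and Nlrc5, the transactivator of class I genes. H2-K1, a classical class I heavy chain, had 5016 to 6718 normalised counts in female LL, above the 3942 to 4788 of female PP and the 3495 to 4619 of male LL, but overlapping the 4252 to 5151 of male PP. Against female PP it was 0.38 ± 0.11 higher at an adjusted P of 0.0499, just under the fold limit, and against male LL 0.54 ± 0.12 higher (adjusted P = 0.000172). Its genotype by sex interaction was 0.61 ± 0.16 (adjusted P = 0.0290). The count-weighted length of H2-K1 was 886 bases, and genes under 1000 bases had a median of 0.25 in female LL against female PP. Class I genes are near copies of each other, and 22.8% of the words of H2-K1 and 67.0% of those of H2-T22 occur in other genes, so counts may be divided between them. Class II genes gave 6 of 6 tested above 0 in females, with a median of 0.46 and 0 called by DESeq2 (1 at an unadjusted p under 0.05).

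Interferon gamma-induced GTPases and chemokines gave 0 called of 21 tested between the genotypes in either sex by DESeq2, with 5 at an unadjusted p under 0.05 in females and 1 in males. In female LL against male LL 6 of the 21 rose, beside 3.33% of all tested genes called higher, namely Igtp, Gbp3, Gbp6, Gbp7, Gbp8 and Gbp10, which encode GTPases that attack the vacuoles of intracellular pathogens. Igtp had 251 to 411 normalised counts in female LL and 95.5 to 170 in male LL, 1.14 ± 0.24 higher (adjusted P = 0.000185). It was called in each of the 32 alternatives. Gbp3 rose in female LL against male LL by 1.04 ± 0.24 (adjusted P = 0.00101) and in female PP against male PP by 0.99 ± 0.26 (adjusted P = 0.00310). The chemokine gene Cxcl10 rose in female PP against male PP by 1.49 ± 0.47 (adjusted P = 0.0267), from at most 10.3 normalised counts in male PP.

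**Figure D4:**
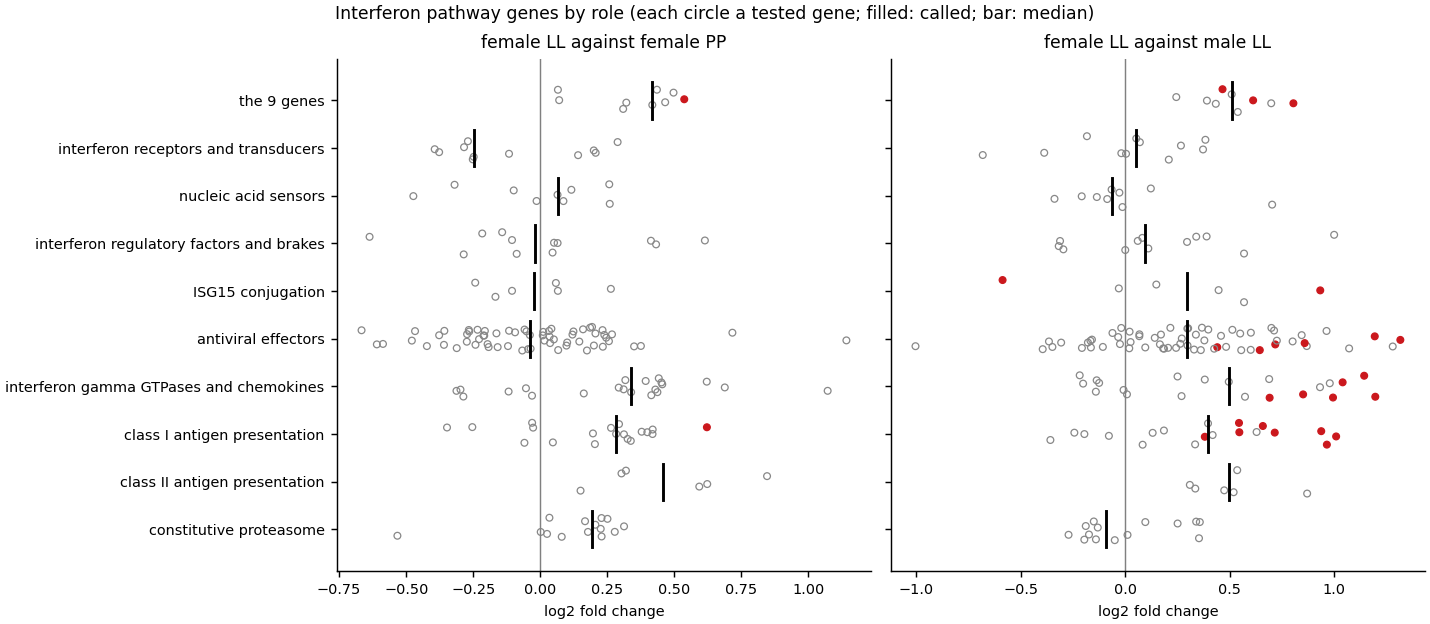
Log2 fold changes (x axes) of every tested gene of the interferon pathway lists (rows) in female LL against female PP (left) and female LL against male LL (right), with called genes filled and the list median as a bar. In the right panel 3 of the 9 genes are called, and the other called genes lie in the effector, GTPase, class I and conjugation rows. The left panel holds 1 called gene outside the 9, Psme1.

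Counted over the 9 genes, 0 were called in male LL against male PP (0.283% of all tested genes), 1 in female LL against female PP (0.658%, or 0.366% higher only), 0 in female PP against male PP (6.45%), 3 in female LL against male LL (6.12%, or 3.33% higher only) and 1 for the interaction (0.119%). These shares over all genes are the background of counts whose members were selected with results known, and nothing is read from them. Beside the 0 in males, 2 genes (Irf7 and Psmb8) had an unadjusted p under 0.05 and edgeR called 0. Beside the 0 in female PP against male PP, 0 had an unadjusted p under 0.05 and edgeR called 0. The 9 log2 fold changes were all above 0 in female LL against female PP, with a median of 0.42, and in female LL against male LL, with a median of 0.51. In males 2 of 9 were above 0, with a median of -0.08. Only Ube2l6 of the 9 had all 5 female LL livers above all 4 male LL livers, a pattern held by 3.64% of all genes. Of the 140 tested genes among 185 others of the pathway, 0 were called in males, 1 in female LL against female PP, 8 in female PP against male PP (7 higher) and 22 in female LL against male LL (21 higher). Female LL livers enter both of the contrasts with the larger medians, so these are not independent.

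The livers did not rank alike for all 9 genes. Female LL 5 was the highest of 18 for 4 genes and female LL 1 for 3, whereas female LL 3 was among the 3 highest for 0. Male PP 2 was the lowest for 4 genes and male LL 1 for 3. After subtraction of group means, 26 of the 36 pairs of genes had a Pearson r above 0, with a median of 0.26 and a range of -0.57 to 0.66 over 18 libraries. Psmb8 and Psmb9 were the closest pair, r = 0.66. These correlations share the libraries and their depth and are given without a test. The genes most like Ube2l6 by this measure were Yipf2 (r = 0.80), Msantd2, Dnajc8, Prss8 and Akr1b1, and those most like the mean of the 9 were Tmem86b (r = 0.92), Ciao2b, Vmo1, Mocs1 and Cideb, none of them in the pathway lists.

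Since fragment length differed between the female groups, the 9 genes were set beside genes of like transcript length. In female LL against female PP the median log2 fold change was 0.25 for 1182 genes under 1000 bases, 0.12 for 2622 genes of 1000 to 2000 bases, -0.01 for 4287 genes of 2000 to 4000 bases and -0.14 for 2847 longer genes. Ube2l6, with a count-weighted length of 1425 bases and a log2 fold change of 0.54, lay under the 95th percentile of its length class, 0.64. Ifit1 (2656 bases, 0.44) and Tap1 (2861 bases, 0.32) lay under that of theirs, 0.48. Bst2 (792 bases, 0.07) lay below the median of genes under 1000 bases and Isg15 (703 bases, 0.42) above it. In female LL against male LL the medians were 0.14, 0.05, 0.00 and -0.04 in the same classes. With transcript length as an offset 0 of the 9 genes were called in either contrast, and with fragment length as a covariate 1 and 2 were.

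**Figure D5:**
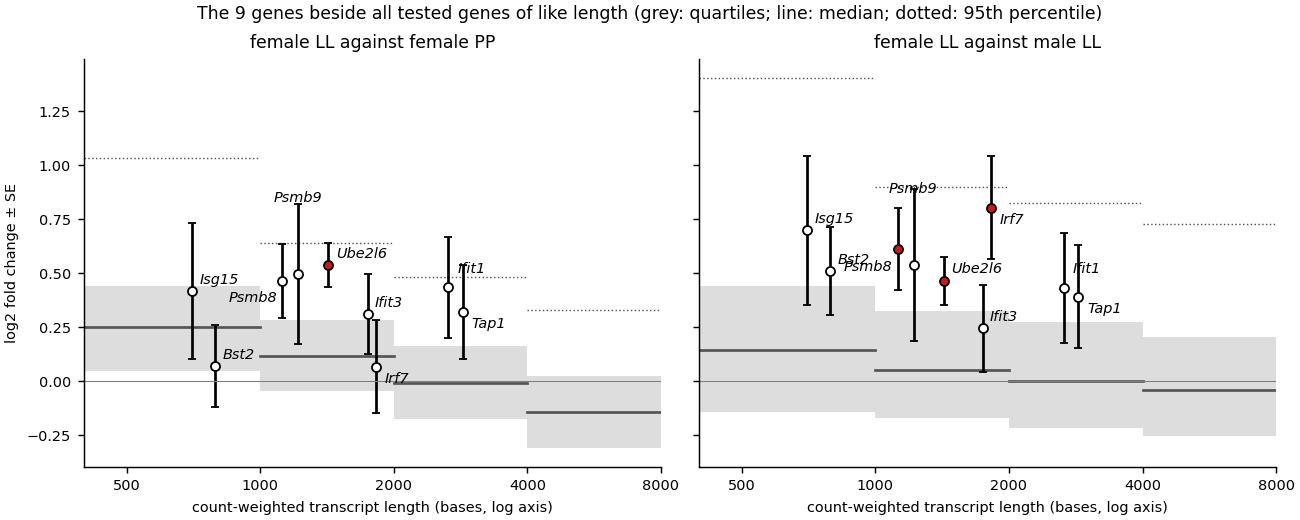
Log2 fold change ± SE (y axis) of the 9 genes against their count-weighted transcript length in bases (x axis, log scale) in female LL against female PP (left) and female LL against male LL (right), over the quartiles, median and 95th percentile of all tested genes of each length class. In the left panel the medians fall from 0.25 under 1000 bases to -0.14 above 4000 bases, and 7 of the 9 genes lie above the median of their class, Bst2 and Irf7 below it.

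Markers of the liver's cell types were summed per library. The 9 Kupffer cell markers summed to 101 to 158 TPM in female LL and 187 to 206 in female PP, a ratio of 0.703 (two-sided exact permutation test, adjusted p = 0.0454 over 40 comparisons). The 7 markers of monocytes and other macrophages, 3 of them past the count minimum, summed to 21.2 to 35.9 TPM in female LL and 43.4 to 54.4 in female PP, a ratio of 0.577 (exact permutation test, adjusted p = 0.0454). On normalised counts the ratios were 0.770 and 0.651 at an adjusted p of 0.0635 each. Before adjustment both sums had the smallest p that 5 against 5 allows, 0.00794, on either scale (exact permutation test). In female LL against female PP Ube2l6 was higher and these sums were lower, whereas in female LL against male LL Ube2l6 and the Kupffer sum were both higher. Marker by marker, 0 of the 9 Kupffer genes and 0 of the 3 tested monocyte and macrophage genes were called between the female genotypes by DESeq2, beside 0.658% of all tested genes. The 8 sinusoidal endothelial markers had a ratio of 0.625 between the female genotypes (adjusted p = 0.0977, exact permutation test). Of the markers of dendritic cells (6), T and NK cells (11) and neutrophils (6), 0 reached the count minimum, and the 6 dendritic markers summed to at most 1.05 TPM in any female liver. In female LL against male LL the Kupffer sum had a ratio of 1.49 (adjusted p = 0.0977) and Vsig4, a Kupffer cell receptor gene, rose by 0.85 ± 0.25 (adjusted P = 0.0160, DESeq2). Vsig4 was the only 1 of the 9 Kupffer markers called there, beside 6.12% of all tested genes. In female PP against male PP 5 of 8 endothelial and 4 of 6 tested stellate markers rose, beside 6.45% of all tested genes called there. The endothelial, stellate, hepatocyte and cholangiocyte sums were all higher there on TPM, with ratios of 3.35, 3.24, 2.42 and 2.17 (adjusted p = 0.0454 each, exact permutation test). On that scale the median of all tested genes was shifted by 0.50. The part of cell composition in these differences was not tested.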

How the data were processed

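Liver RNA was sequenced from 18 mice. Per the labels and the study's methods, the authors quantified untrimmed reads with Salmon 1.4.0 against GENCODE M26 (GRCm39) and deposited, per mouse, estimated counts and TPM for each of 139225 transcripts, with effective and annotated lengths. The library's strandedness is not given in the sources used here. Of the deposited values above 0, 89.9% were not whole.

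Transcripts were joined to genes by GENCODE M39 (137570 matched, at least 99.76% of counts, and 1655 did not match), and estimated counts were summed per gene and rounded. Genes with at least 10 counts in 4 or more libraries were tested (10938). DESeq2 1.42.0 in R 4.3.3 was fitted to the 4 groups together, with contrasts within it, and a gene was called at an adjusted P (Benjamini-Hochberg) under 0.05 and a fold of at least 1.3 or at most 0.7. P-values of this fit thus set a group difference against a spread between mice that is estimated per gene and shared by the 4 groups. An adjusted P that independent filtering left empty was kept empty, and the value without filtering is given where named. Fragment length was the median of length minus effective length over transcripts of at least 3000 bases. Marker sums were compared by two-sided exact permutation tests, for which the smallest possible p is 0.0286 with 4 against 4 and 0.00794 with 5 mice in a group.

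The 9 genes and the pathway and marker lists were chosen with earlier results of these data known. Genes named outside the 9 were those of the fixed comparison set, the called genes of the pathway lists (at most 30), the 3 with the smallest p in a contrast with fewer than 3 called, the defining markers, and the 5 genes most like Ube2l6 or the mean of the 9 in pattern (Pearson r of log2(normalised count + 1), group means removed). Genes named beyond that rule were chosen after their values were seen. Alternatives used edgeR 4.0.16 (quasi-likelihood), limma 3.58.1 on log2(TPM + 1), other size factors, filters, offsets and covariates, and each mouse left out in turn. Replicate numbers in different groups deviated together with r of -0.17 to 0.16, so they only name mice. Scripts were tested on simulated data.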

Additional observations from a re-analysis of the deposited data

Results flagged for a closer look

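Of 36 groups of 4 or 5 livers examined for the 9 genes, 2 held a liver far from the others, where chance gives about 1 in 20. Male LL 3 was the lowest of its group for Ube2l6, at 211 normalised counts against 264 to 270 in the other 3. Male PP 2 was the lowest of its group for Isg15, at 17.8 normalised counts against 36.0 to 38.5.

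The genotype effect differed between the sexes for 2 genes by the interaction term of the DESeq2 fit. It was 0.61 on the log2 scale for Ube2l6 and 0.61 for H2-K1. The median interaction was 0.09 over tested genes of 1000 to 2000 bases, the length class of Ube2l6. It was 0.20 over genes under 1000 bases, the class of H2-K1 (886 bases). Ube2l6 passed the threshold in 9 of 31 alternatives, and H2-K1 did not in 23 of 31.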

How the results depend on the processing

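Over 32 alternatives (31 for the interaction), counts of called genes moved with the test, the scale, the length correction and the livers included, and the cause was not tested. The limma alternatives change test and scale together. Of the 9 genes, the 1 called in female LL against female PP became 0 with edgeR, with the transcript length offset and with limma on log2 TPM, rescaled or not. The 3 called in female LL against male LL became 0 with the offset and with limma on either TPM scale, and 1 with the replicate block, with only the 2 groups compared and with both female LL 5 and male LL 1 left out (an alternative added after seeing the data). The 0 in female PP against male PP became 4 with limma on log2 TPM, where all genes shifted by 0.50. The 1 interaction became 0 with edgeR, without independent filtering, with the offset, with fragment length or age as a covariate, with the replicate block, with limma on either TPM scale and with both livers left out.

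Of the other pathway genes, the 0 in male LL against male PP became 1 with the offset. The 1 in female LL against female PP became 0 with edgeR, the offset, fragment length as a covariate and limma on either TPM scale, and 2 with only the 2 groups compared or both livers left out. With age as a covariate it stayed 1, but the higher call (Psme1) was lost and 1 lower call appeared. The 8 in female PP against male PP became 3 with edgeR, 5 (4 higher) with fragment length, 5 with the replicate block, 71 (all higher) with limma on log2 TPM and 3 with limma on rescaled log2 TPM. The 22 in female LL against male LL became 10 (9 higher) with edgeR, 12 (10 higher) with the offset, 13 (12 higher) with fragment length, 13 (12 higher) with the replicate block, 1 with limma on rescaled log2 TPM and 9 (8 higher) with both livers left out. The 7 marker sums with an adjusted p under 0.05 on TPM became 0 on normalised counts. Among them, the Kupffer, monocyte, hepatocyte and stellate sums had the smallest possible exact permutation p, 0.00794, on both scales. Their adjusted p thus moved only with the other comparisons. The endothelial and cholangiocyte sums of female PP against male PP went to 0.0159 and 0.333 before adjustment (exact permutation test). The replicate numbers do not pair mice, and the block values are given for that reason only here.

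With each liver left out in turn, called genes among the 9 ranged from 0 to 0 in males, 1 to 1 in female LL against female PP, 0 to 0 in female PP against male PP, 1 to 5 in female LL against male LL (5 without female LL 3, 1 without female LL 5 or male LL 1) and 0 to 2 for the interaction. Among the other genes the ranges were 0 to 1, 0 to 3 (3 without female PP 4), 3 to 8 and 12 to 22 in the same order of contrasts, and marker sums past 0.05 went to 0 to 0. Leaving out a liver raises the smallest possible p of some comparisons, for instance to 0.0286 at 4 against 4 (exact permutation test). The fall of the marker sums thus does not show that they depend on single livers.

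A log2 difference that was called or beyond 1 SE changed sign in 9 cases. With limma on log2 TPM, Ube2l6 was 0.60 in female PP against male PP and -0.14 for the interaction, Psmb8 was -0.072 in female LL against female PP, 0.46 in female PP against male PP and -0.052 for the interaction, and Tap1 was -0.0013 for the interaction. With the offset, Psmb8 was -0.016 in female LL against female PP and Tap1 was -0.072 in female LL against male LL, where limma on rescaled log2 TPM gave -0.016. Depth limits the low genes most, since 16 counts in a library leave a wide counting error.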
